A study of Mus musculus with 6 samples.

Results

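The genes of ciliary transport and of Bardet-Biedl syndrome were followed in whole mouse embryos at embryonic day 8.5. Members were the probe sets annotated with exactly 1 gene symbol that began with Ift, Bbs, Tctn or Nphp and a digit, together with Kif3a, Kif3b, Kif7, Dync2h1, Dync2li1, Ofd1, Mks1, Cep290, Tmem67 and Ahi1; no probe set carried the single symbol Arl13b or Rpgrip1l. This gave 58 of 45037 probe sets and 36 of 18193 named genes: 11 of the intraflagellar transport complex B (IFT-B), 3 of complex A (IFT-A), 8 of the BBSome and its chaperonins, 5 motor genes and 9 genes of the transition zone or other ciliopathies. A probe set combines several short probes against a transcript into a single signal, and each gene was represented by its brightest probe set, that is, the one with the highest mean over all arrays. After the dimmest 40% of all probe sets were left out, 35 member genes and 51 member probe sets were tested; Tmem67 was too dim.

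The study compared 3 wild-type embryos with 3 Tcof1+/- littermates, 1 embryo to an array, at the same age and with no treatment. The product of Tcof1, treacle, acts in the nucleolus in making ribosomal RNA. People with 1 working and 1 non-working copy have Treacher Collins syndrome, a disorder of facial development. The strain, the sex of the embryos and how the Tcof1 allele was made were not given in the sources used here. RNA came from entire embryos, so fewer cells of a type and less RNA per cell cannot be told apart in any value below.

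Cilia are microtubule-based projections of the cell surface, assembled and maintained by intraflagellar transport. Kinesin-2 carries IFT-B particles and their cargo toward the tip, and cytoplasmic dynein 2 with IFT-A brings them back. The BBSome is an adaptor that moves membrane proteins out of and into the cilium, and the transition zone at its base is the gate through which they pass. In the early mouse embryo, cilia receive Hedgehog signals in the neural tube, and motile cilia of the node set the left-right axis. Many of these genes are bound by RFX transcription factors at a promoter element called the X-box.

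The promoters were examined for this element. The genes were chosen as ciliary and the element is known from such genes, so a higher share among them is not an independent result. The motif searched, on both strands, was the RFX X-box, an inverted repeat of half-sites with 0 to 3 bases between them. RefSeq promoter windows of GRCm38.p6, from 250 bases before to 50 bases after the transcription start, held a match in 6 of 31 member genes with a window, 19.4%, against 474 of 27025 genes with a window, 1.75%. Among windows of the same length, 502 of 32851 held a match, 1.53%. The 6 genes were Ift57, Tctn1, Tctn2, Tctn3, Bbs1 and Ahi1, and Ift57 held a pair of matches. The upstream matches are shown in their surroundings, written 5′ to 3′ on the strand of the gene, with the matched bases in capitals.
Ift57 (GRCm38.p6 chr16:49699187-49699246, + strand): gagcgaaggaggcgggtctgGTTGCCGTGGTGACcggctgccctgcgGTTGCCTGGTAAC
Tctn2 (GRCm38.p6 chr5:124598667-124598726, + strand): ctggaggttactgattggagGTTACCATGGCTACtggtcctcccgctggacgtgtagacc
Tctn3 (GRCm38.p6 chr19:40612332-40612391, - strand): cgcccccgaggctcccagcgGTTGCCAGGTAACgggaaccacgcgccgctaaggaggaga

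In the other 3 genes the match lay just downstream of the annotated start, and the matched bases alone are shown.
Ahi1: GTTACCTAGGCAAC
Bbs1: GTTGCCAAGGCGAC
Tctn1: GTTGCCCGGGCAAC

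The matched bases of Ahi1, Tctn1 and Tctn3 and the second match of Ift57 read as X-boxes on both strands. Whether genotype differences go with the motif was not tested. The median log2 difference was -0.03 over the 6 tested members with a match, 4 of them negative, and -0.05 over the 25 without one, 14 of them negative. Ift80, Ift81, Ift122 and Dync2li1 were tested and had no window in the promoter table. A match is a description of the letters and was not tested for binding.

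The signals of all arrays were on a common scale, with array medians between 21.0 and 25.6 arbitrary units, and the log2 values of any pair of arrays had a correlation of 0.964 to 0.974. Bacterial control probe sets without a target in the sample reached 8.55 to 13.5 units, which served as the background. Tcof1, the targeted gene, had signals of 382, 393 and 387 in the wild types and 222, 179 and 231 in the heterozygotes. No heterozygote reached the wild-type range, and heterozygotes had 54.5% of the wild-type signal, a log2 difference of -0.88 (SE 0.12; limma adjusted p = 0.0352). Without any 1 array the difference was -0.95 to -0.77 and the adjusted p 0.0586 to 0.190. These values are from the brightest Tcof1 probe set. Its dimmer tested probe sets were also lower in every heterozygote, at 64.9% and 60.9% of the wild-type signal. Their differences were -0.61 and -0.70, and neither passed (limma adjusted p = 0.582 and 0.385). Markers of neural tube and heart were above the bacterial controls on all arrays for 8 of 8 and 6 of 6 genes, and none of the 3 decidua and trophoblast markers on the array was bright enough to be tested.

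The ciliary genes differed little between genotypes, and none passed the test. Of the 35 tested members, 0 had an adjusted p under 0.05 in limma, against 0.124% of the 12853 named genes tested on their brightest probe set. All 51 tested member probe sets likewise stayed above that threshold, against 0.0814% of all tested probe sets called. At an unadjusted p under 0.05, 2 members were lower in heterozygotes, Ift74 and Ift140, which is 5.71% of members against 3.89% of all tested genes, and 0 members were higher, against 3.00%. Member log2 differences, heterozygote minus wild type, ran from -0.50 for Ift74 to 0.39 for Bbs2, with a median of -0.03 against -0.01 over all tested genes. Of the members, 21 had negative and 14 positive differences, so that 60% were negative against 52.7% of all tested genes.

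The precision allows a bound on how large a difference could have gone unseen. The 95% interval of the difference lay within a 1.5-fold change in either direction for 26 of the 35 members, 74.3%, against 60.6% of all tested genes. It lay within a 2-fold change for 34 members, the exception being Tctn1. The spread between embryos of a genotype had a median SD of 0.15 on the log2 scale for members and 0.18 for all tested genes. A p above the threshold does not show that the genotypes were equal, and 3 embryos per genotype limit every comparison.

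**Figure D1:**
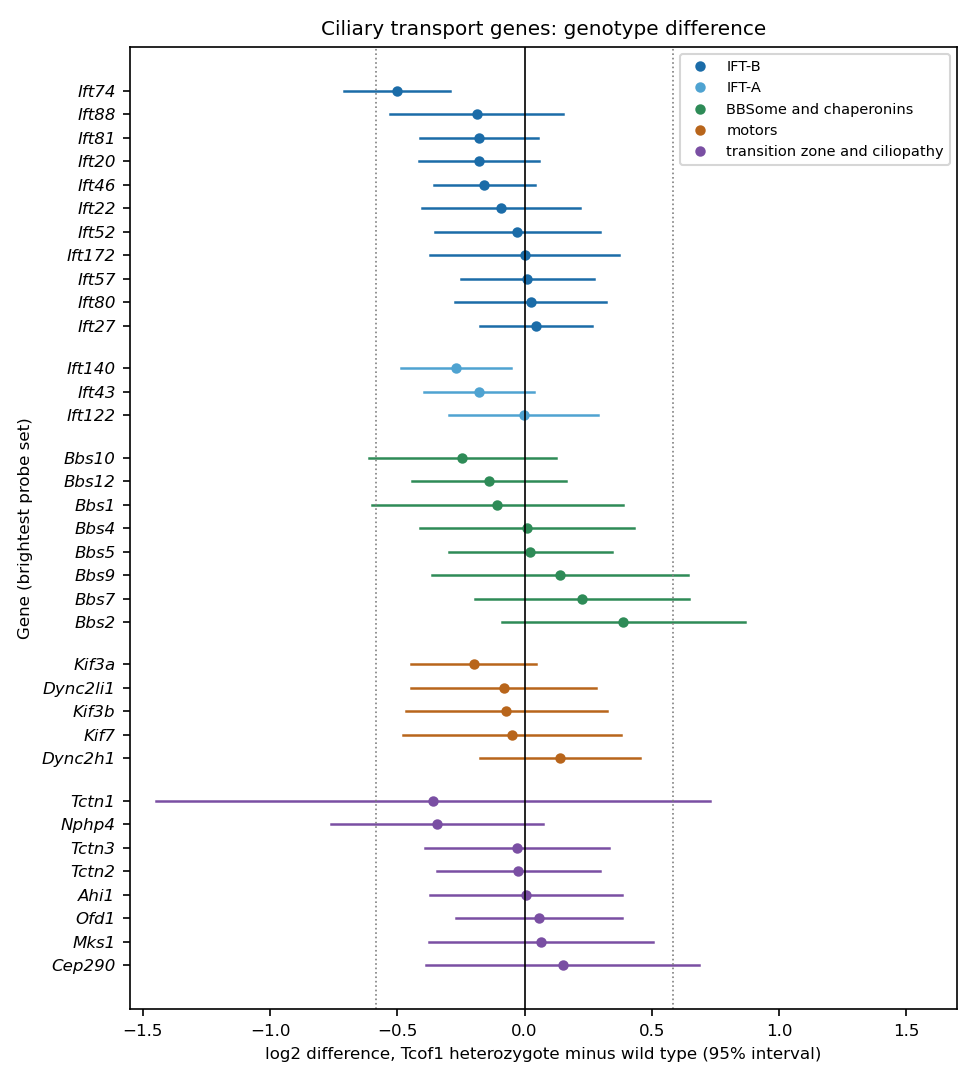
Difference in log2 signal between Tcof1 heterozygotes and wild types (horizontal axis) for each of the 35 tested members (vertical axis), grouped and coloured by role, on the gene's brightest probe set. Points are limma estimates from 3 arrays per genotype, bars are 95% intervals and dotted lines mark a 1.5-fold change; Ift74 and Ift140 are the members whose interval does not reach 0, and neither passed after adjustment.

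Most of the members that were lower in every heterozygote were intraflagellar transport genes, none of which passed the test. Of the 14 IFT-A and IFT-B genes, 10 had negative differences, with a median of -0.12, while 11 of the other 21 members were negative, with a median of -0.02; whether these groups differ was not tested. Groups without overlap are those in which every heterozygote lay beyond every wild type. Every heterozygote was below every wild type for 7 members, 20.0%, against 7.31% of all tested genes, and above for 0 members, against 5.70%. The 7 were Ift74, Ift140, Ift43, Ift20, Ift81, Bbs10 and Kif3a, of which 5 are IFT genes. Over all 51 tested member probe sets, the number lower without overlap was also 7, or 13.7%. The further tested probe sets of Ift81, Bbs10 and Kif3a overlapped between the genotypes, with differences on both sides of 0. When the arrays were instead set to equal medians, 5 members, of which 2 were IFT genes, were lower without overlap, against 5.77% of all tested genes. With quantile normalization these counts were 7 and 5, against 7.52%. The median of the IFT genes stayed negative under all alternatives run, from -0.16 for the mean of a gene's probe sets to -0.10 without wild type 1. These counts and medians hold only the genes with an Ift symbol. Of 24 tested IFT, BBSome and motor genes under other names, 1 was lower without overlap, Mkks, which is not an IFT subunit. In that list 2 were higher without overlap, the IFT-A subunits Wdr35 and Wdr19.

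Among the marker lists, the summed signal separated the genotypes for neural tube alone. All 8 neural tube markers had negative differences, with a median of -0.56. At an unadjusted limma p under 0.05, 7 were lower, 87.5% against 3.89% of all tested genes. None passed after adjustment (lowest limma adjusted p = 0.457). The markers were chosen with earlier results of these data known, so these shares are a description. Their summed signal was 2368 to 2504 in wild types and 1605 to 2116 in heterozygotes, without overlap. Sox2 was the largest part of this sum, with a mean of 949 in wild types and 815 in heterozygotes. Taken singly, Hes5 and Nes overlapped between the genotypes. The other sums overlapped. Heart markers summed to 8773 to 10239 in wild types and 9552 to 11698 in heterozygotes. Taken singly, 5 of the 6 heart markers had positive differences, with a median of 0.18. At an unadjusted limma p under 0.05, 2 were higher, 33.3% against 3.00% of all tested genes. Without overlap 2 were higher, 33.3% against 5.70%. None of the heart markers passed after adjustment (lowest limma adjusted p = 0.162), and these shares too are a description. Sums of the 7 primitive erythroid markers ranged from 5792 to 13649 in wild types and from 319, in heterozygote 1, to 11214, and those of the 8 yolk sac endoderm markers from 1913 to 9963 and from 856 to 15796. All 6 tested erythroid markers had negative differences, with a median of -1.51, and 7 of the 8 yolk sac markers, with a median of -0.19. Every tested marker of these lists overlapped between the genotypes. No marker was at 0 on any array. The 3′ probe set of Gapdh exceeded its 5′ probe set by 0.84 to 1.04 on the log2 scale in wild types and by 0.68 to 0.81 in heterozygotes, also without overlap. The part of these measures in the lower IFT signals was not tested.

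IFT-B is the complex that carries cargo toward the ciliary tip, and 7 of its 11 members had negative differences, with a median of -0.09, which was -0.04 without wild type 2. Ift74, which forms with Ift81 a module that binds tubulin, had the largest difference of all members in relation to its error. Its signals were 445, 426 and 432 in the wild types and 295, 298 and 327 in the heterozygotes. The heterozygotes lay together, well below the wild types, at 70.6% of the wild-type mean (434 ± 9.35 against 307 ± 18.2; SD, n = 3 each). The log2 difference was -0.50 (SE 0.09; 95% interval -0.71 to -0.29), with an unadjusted limma p of 0.000338 and an adjusted p of 0.203. By scan day, it was -0.55 for the 4 arrays scanned first and -0.40 for the 2 arrays scanned later. The adjusted p ranged from 0.0885 to 0.627 over the alternatives, all above 0.05. A single probe set measured this gene.

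Ift81, the partner of Ift74, did not give the same answer on its tested probe sets. The brightest read 303, 355 and 325 in the wild types and 275, 298 and 294 in the heterozygotes, lower in every heterozygote, with a log2 difference of -0.18 (SE 0.10; limma adjusted p = 0.824). The next read 228, 249 and 242 against 217, 264 and 273, overlapping, with a difference of 0.06 (SE 0.12). Another probe set of Ift81 was too dim to be tested.

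Ift46, a core IFT-B subunit and the brightest member, had signals of 565, 517 and 580 in the wild types and 473, 498 and 517 in the heterozygotes. The ranges met at the lowest wild type and the highest heterozygote, and the log2 difference was -0.16 (SE 0.09; limma adjusted p = 0.824). Ift20, which also acts at the Golgi in sorting proteins bound for the cilium, read 239, 260 and 260 in the wild types against 228, 212 and 230 in the heterozygotes. Its ranges did not overlap, and it differed by -0.18 (SE 0.10; limma adjusted p = 0.829), with the same value on each scan day to 2 decimals.

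Ift88, whose mutation gives the Oak Ridge polycystic kidney mouse, read 176, 142 and 148 in the wild types and 124, 125 and 161 in the heterozygotes. Heterozygotes 1 and 2 were below all wild types and heterozygote 3 was within their range, for a log2 difference of -0.19 (SE 0.15). Ift22, a small GTPase-like subunit, differed by -0.09 (SE 0.14) with overlapping ranges. The remaining IFT-B genes lay close to 0: Ift52, a core subunit, differed by -0.03 (SE 0.14), and Ift80, a peripheral subunit, by 0.02 (SE 0.13). Ift27, a small GTPase that links the complex to the BBSome, differed by 0.04 (SE 0.10).

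Ift57 and Ift172, both peripheral IFT-B subunits, had differences of 0.01 (SE 0.12) and less than 0.01 in size (SE 0.17). Ift57, whose promoter carried a pair of X-box matches, read 174, 201 and 202 in the wild types and 195, 184 and 201 in the heterozygotes. The heterozygotes fell inside the wild-type range, and the 95% interval on this probe set, from -0.25 to 0.27, excludes a change of 1.5-fold. A dimmer probe set of Ift57 differed by -0.34 (SE 0.46), with an interval of -1.36 to 0.68 that does not exclude it. That probe set was above the bacterial controls on 4 of the arrays.

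**Figure D2:**
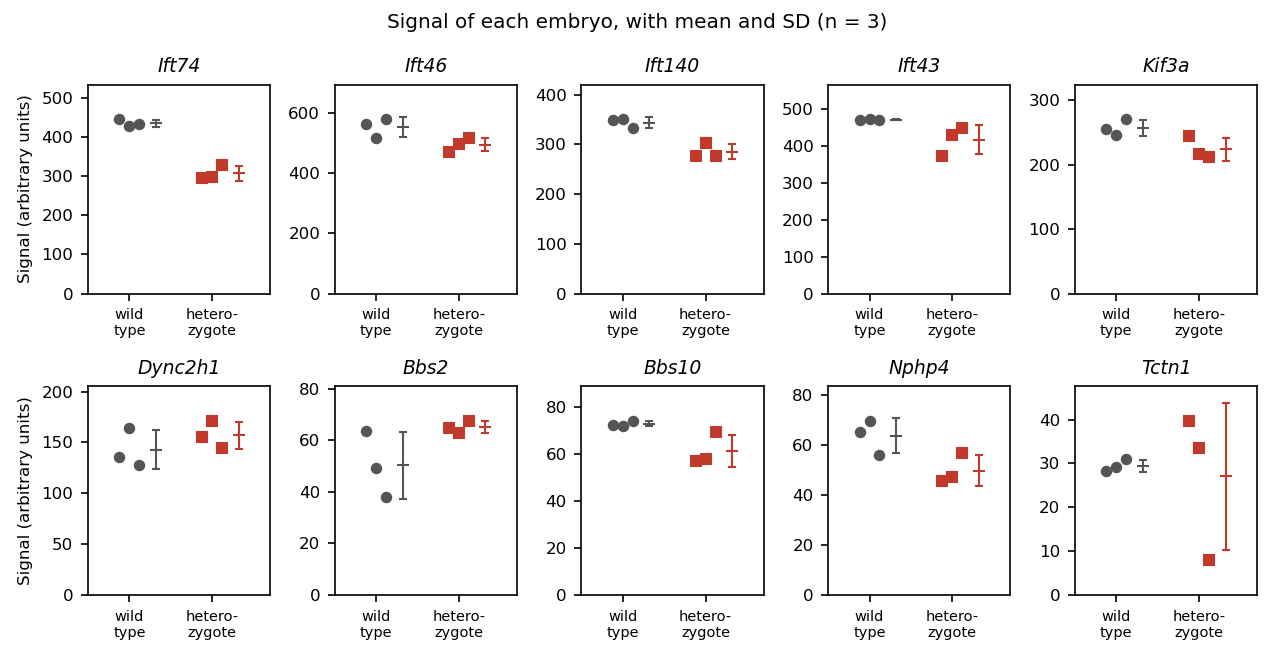
Signal in arbitrary units (vertical axis, from 0, with its own scale in each panel) of every wild-type embryo (grey circles) and Tcof1 heterozygote (red squares) for 10 members, with the mean and SD of each genotype (n = 3) as a bar beside the points. Ift74, Ift140, Ift43, Kif3a and Bbs10 are lower in every heterozygote than in any wild type, and heterozygote 3 is the low point for Tctn1.

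IFT-A, needed for transport back from the tip, was represented by 3 genes, all with negative differences and a median of -0.18. Without heterozygote 1 the median was -0.10 and 2 of the 3 were negative. Ift140, a core IFT-A subunit, read 350, 350 and 332 in the wild types and 276, 303 and 278 in the heterozygotes. All heterozygotes were below all wild types, at 83.0% of the wild-type mean, and the log2 difference was -0.27 (SE 0.10; 95% interval -0.48 to -0.05). Its unadjusted limma p was 0.0198 and its adjusted p 0.750. By scan day, the difference was -0.27 and -0.26.

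Ift43, a small peripheral IFT-A subunit, had wild-type signals of 470, 471 and 469 and heterozygote signals of 373, 428 and 449. The wild types lay within 3 units of each other, and the heterozygotes spread below them, for a log2 difference of -0.18 (SE 0.10; limma adjusted p = 0.824). Ift122, a core subunit whose loss alters Hedgehog signalling in mice, read 287, 234 and 282 against 232, 299 and 271. Its ranges overlapped fully, and it differed by less than 0.01 in size (SE 0.13). A dimmer probe set of Ift122 differed by -0.37 (SE 0.25; limma adjusted p = 0.848).

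The BBSome genes did not share a direction, with 3 negative and 5 positive differences and a median of 0.02. With an array left out, the median ran from -0.02 without wild type 2 to 0.07 without wild type 1. Bbs2, a BBSome subunit, read 63.6, 49.4 and 37.9 in the wild types and 64.7, 62.9 and 67.6 in the heterozygotes. The heterozygotes were tightly placed at the top of a wide wild-type range, and the log2 difference was 0.39 (SE 0.21; 95% interval -0.09 to 0.87; limma adjusted p = 0.824). It was 0.18 and 0.80 by scan day, and 0.21 to 0.57 with an array left out. Bbs7, which forms a core with Bbs2 and Bbs9, read 77.3, 55.6 and 56.7 against 69.0, 69.1 and 82.8, for a difference of 0.23 (SE 0.19). Its ranges overlapped through wild type 1. Bbs9 differed by 0.14 (SE 0.23).

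Bbs10, a chaperonin-like protein needed for BBSome assembly, read 72.2, 71.9 and 74.0 in the wild types and 57, 57.8 and 69.0 in the heterozygotes. All heterozygotes were lower, for a log2 difference of -0.24 (SE 0.16; limma adjusted p = 0.848). Its other probe set, at 52.3, 45.7 and 51.8 against 56.7, 62.9 and 45.3, overlapped and differed by 0.13 (SE 0.20). Bbs12, another chaperonin-like protein, differed by -0.14 (SE 0.14) and had a single probe set.

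Bbs1, the subunit most often mutated in the human syndrome, read 78.8, 46.6 and 71.9 in the wild types and 66.2, 55.8 and 56.9 in the heterozygotes. The heterozygotes fell inside the wild-type range, and the log2 difference was -0.11 (SE 0.22). Bbs4 and Bbs5, both BBSome subunits, differed by 0.01 (SE 0.19) and 0.02 (SE 0.14). A dim probe set of Bbs7 read 1.02, 1.13 and 0.952 in the wild types and 3.78, 6.49 and 5.91 in the heterozygotes; all of these are below the bacterial controls of their arrays, so they are not a measure of the transcript.

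Among the motors, 4 of 5 genes had negative differences, with a median of -0.07, which ran from -0.14 without wild type 3 to -0.03 without wild type 2. Kif3a, a motor subunit of kinesin-2 needed for nearly all cilia, read 256, 246 and 271 in the wild types and 245, 216 and 211 in the heterozygotes. Heterozygote 1 and wild type 2 were nearly equal, although no ranges overlapped, and the log2 difference was -0.20 (SE 0.11; limma adjusted p = 0.824). Its 3 dimmer probe sets differed by -0.03, -0.04 and 0.12, all with overlapping ranges.

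Kif3b, the partner of Kif3a, differed by -0.07 (SE 0.18). Its 3 dimmer probe sets ran from -0.18 to 0.25. Dync2h1, the heavy chain of the retrograde motor, read 136, 164 and 128 in the wild types and 155, 171 and 144 in the heterozygotes. It was the single motor gene with a positive difference, 0.14 (SE 0.14; limma adjusted p = 0.889), and its ranges overlapped.

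Dync2li1, the light intermediate chain of the same motor, read 336, 232 and 333 in the wild types and 299, 239 and 306 in the heterozygotes. Embryo 2 of each genotype was the lowest, and the log2 difference was -0.08 (SE 0.16). Kif7, which regulates Gli proteins at the ciliary tip, differed by -0.05 (SE 0.19).

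**Figure D3:**
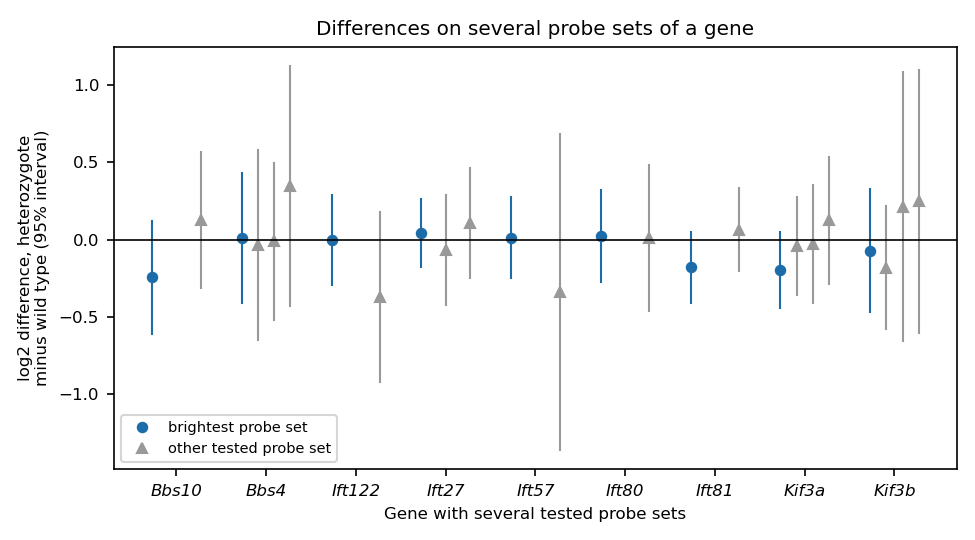
Difference in log2 signal, Tcof1 heterozygote minus wild type (vertical axis), on every tested probe set of the 9 member genes that have several (horizontal axis); blue circles are the brightest probe set, grey triangles the others, and bars are 95% limma intervals from 3 arrays per genotype. All intervals include 0, and the estimates lie on both sides of it within every gene but Ift80 and Ift122.

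Genes of the transition zone and other ciliopathies were evenly split, with 4 negative and 4 positive differences and a median of -0.01. The median was -0.05 with 6 of 8 negative without wild type 2, and 0.04 with 3 of 8 negative without wild type 3. Nphp4, a nephronophthisis gene of the transition zone, read 65.5, 69.8 and 56.0 in the wild types and 45.6, 47.2 and 56.9 in the heterozygotes. Heterozygotes 1 and 2 were below all wild types, while heterozygote 3 was above wild type 3. The log2 difference was -0.34 (SE 0.19; 95% interval -0.76 to 0.07; limma adjusted p = 0.823), made up of -0.53 for the arrays scanned first and 0.02 for those scanned later.

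Tctn1, a tectonic of the transition zone and the dimmest tested member, read 28.3, 29.3 and 30.9 in the wild types and 39.7, 33.4 and 8.05 in the heterozygotes. Heterozygotes 1 and 2 were above all wild types and heterozygote 3 was below them and below its array's bacterial controls. The log2 difference was -0.36 (SE 0.49; limma adjusted p = 0.916), and it was 0.29 without heterozygote 3. Its relatives Tctn2 and Tctn3 differed by -0.02 (SE 0.14) and -0.03 (SE 0.16).

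Cep290, which tethers the ciliary membrane to the microtubules at the transition zone, read 66.5, 66.2 and 55.9 in the wild types and 78.8, 90.1 and 47.5 in the heterozygotes. Heterozygotes 1 and 2 were the highest embryos and heterozygote 3 the lowest, for a log2 difference of 0.15 (SE 0.24). Ahi1, a Joubert syndrome gene, read 109, 120 and 148 in the wild types and 147, 126 and 106 in the heterozygotes. Replicate 3 held both its highest wild type and its lowest heterozygote, and it differed by less than 0.01 (SE 0.17), with 0.24 for the arrays scanned first and -0.47 for those scanned later.

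Mks1, a Meckel syndrome gene, and Ofd1, a protein of the centriole end, differed by 0.06 (SE 0.20) and 0.06 (SE 0.15), with overlapping ranges. Tmem67, another Meckel syndrome gene, was left out of the test for its low signal. It read 15.4, 5.10 and 3.33 in the wild types and 11.5, 13.1 and 19.2 in the heterozygotes, above the bacterial controls on 4 of the arrays, and its ranges overlapped. The other dim probe sets, 1 each of Ahi1 and Nphp4 and 2 of Tctn3, were also left out.

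The median of the members was also taken in each embryo, as the deviation from the wild-type mean of each gene. It was 0.03, less than 0.01 and -0.02 in wild types 1, 2 and 3, and less than 0.01, -0.09 and -0.07 in heterozygotes 1, 2 and 3. Heterozygote 1 lay among the wild types, and heterozygotes 2 and 3 were below them. Taken from the mean of all 6 arrays instead, the medians were 0.09, 0.03 and 0.03 in the wild types and 0.02, -0.06 and -0.05 in the heterozygotes, with heterozygote 1 also below every wild type. For the 14 IFT genes alone it was 0.01, 0.02 and -0.02 in the wild types and -0.17, -0.14 and -0.08 in the heterozygotes, so that all heterozygotes were below all wild types. The median over all tested genes stayed between -0.02 and 0.01 in every embryo.

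**Figure D4:**
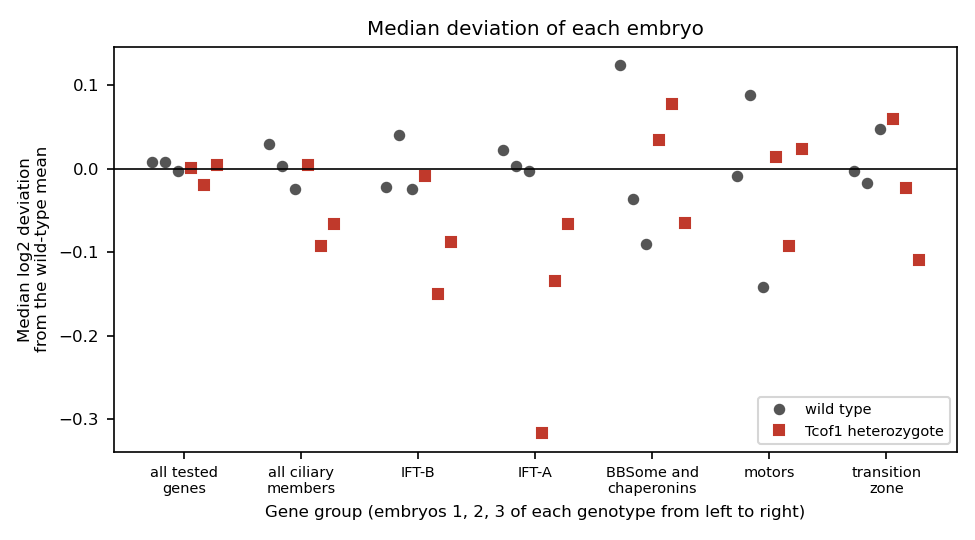
Median log2 deviation from the wild-type mean (vertical axis) in each embryo for all tested genes, all tested members and each role group (horizontal axis), with grey circles for wild types 1 to 3 and red squares for heterozygotes 1 to 3. Heterozygotes lie between -0.32 and -0.07 in IFT-A, with heterozygote 1 lowest, and the genotypes are mixed for the BBSome, motor and transition zone genes.

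The difference was also taken within each scan day. The median log2 difference of the members was -0.04 among the arrays of the first day, replicates 1 and 2 of each genotype, and -0.05 between those of the second, replicate 3 of each. Over all tested genes these medians were -0.02 and 0.01. Of the 35 members, 12 were negative on both days, 6 were positive on both, and the others changed sign. Of all 12853 tested genes, 3469 were negative on both days and 3103 positive on both. The median was -0.15 and -0.01 for IFT-B, -0.24 and -0.06 for IFT-A, 0.04 and -0.07 for the BBSome genes, -0.10 and 0.04 for the motors, and within 0.01 of 0 on both days for the transition zone genes. The BBSome and motor medians thus had opposite signs on the days, and whether the days differ was not tested. Among the 14 IFT genes, 7 were negative on both days and 1 positive on both.

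Ciliary genes that carry other names, and so lie outside the members, were listed for the same complexes. Of 24 further IFT, BBSome and motor genes tested, 0 were called, 15 had negative differences and the median was -0.04. Wdr35, an IFT-A subunit also known as Ift121, read 123, 113 and 113 in the wild types and 155, 135 and 160 in the heterozygotes. It was higher in every heterozygote, by 0.36 on the log2 scale (SE 0.13; limma adjusted p = 0.754). Wdr19, another IFT-A subunit, was also higher in every heterozygote, at 44.6, 54.9 and 54.6 against 59.4, 59.7 and 68.6 (0.28, SE 0.18; limma adjusted p = 0.847). Ttc21b, a further IFT-A subunit, differed by -0.02 (SE 0.13) with overlap. With these genes beside the 3 IFT-A members, the estimates for the complex lay on both sides of 0. Kif17, a kinesin-2 motor, read 48.4, 27.1 and 32.6 against 31.7, 13.7 and 18.8, with overlap and a difference of -0.74 (SE 0.35; limma adjusted p = 0.801). Its other probe set differed by 0.61 (SE 0.29), and the mean of both by -0.06.

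Of 34 further transition zone, centriole and ciliary membrane genes tested, 0 were called, 23 had negative differences and the median was -0.05. Wdpcp, a planar cell polarity effector that acts at the ciliary base, read 43.3, 38.9 and 48.2 in the wild types and 30.5, 23.5 and 31.0 in the heterozygotes. It was lower in every heterozygote, by a log2 difference of -0.59 (SE 0.23; limma adjusted p = 0.775). B9d1, a transition zone protein, read 215, 204 and 212 against 182, 198 and 170, also lower in every heterozygote, with a difference of -0.20 (SE 0.11; limma adjusted p = 0.824).

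The Hedgehog pathway depends on cilia in the mouse, and 17 of its genes were tested. Of these 0 were called, 11 had negative differences and the median was -0.07. Gas1, a co-receptor for Hedgehog ligands, read 1763, 1950 and 1599 in the wild types and 1336, 950 and 1450 in the heterozygotes. It was lower in every heterozygote, with a log2 difference of -0.53 on its brightest probe set (SE 0.14; limma adjusted p = 0.635). When the tested probe sets of each gene were averaged, Gas1 differed by -0.94 and passed (limma adjusted p = 0.0272). Sufu, which restrains the Gli factors, read 337, 364 and 389 against 341, 308 and 244, with overlap and a difference of -0.30 (SE 0.13; limma adjusted p = 0.793).

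Of 11 tested genes of cilium transcription factors, motile cilia and the node, 0 were called, 5 had negative differences and the median was 0.02. Rfx4, an RFX factor of the neural tube, read 189, 163 and 146 in the wild types and 109, 108 and 149 in the heterozygotes. Heterozygote 3 was inside the wild-type range, and the log2 difference was -0.45 (SE 0.17; limma adjusted p = 0.759). Lefty1, a Nodal antagonist of the midline, read 22.1, 33.5 and 22.1 against 7.55, 32.9 and 6.56, with a difference of -0.96 (SE 0.53; limma adjusted p = 0.824). Heterozygotes 1 and 3 were below their arrays' bacterial controls, so the size of this difference rests on background, and it ran from -1.61 to -0.59 with an array left out. Over these 4 lists together, 86 genes were tested and 4 had an unadjusted p under 0.05, which is 4.65% against 6.89% of all tested genes. The groups did not overlap for 6 genes lower in heterozygotes, 6.98% against 7.31%, and for 3 genes higher, 3.49% against 5.70%. These pooled counts were thus at or below the background, but the lists differed. The Hedgehog list had 3 lower, 17.6%, and 1 higher, 5.88%. The list of IFT, BBSome and motor genes had 1 lower, 4.17%, and 2 higher, 8.33%. In the transition zone list 2 were lower, 5.88%, and 0 higher, and the node list had 0 of either.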

How the data were processed

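Total RNA of single embryos (100 ng) was amplified in a pair of labelling cycles and 20 µg of cRNA hybridised to a whole-genome Affymetrix mouse array, as the labels' protocols state. The values the authors deposited are linear intensities, which GCOS produced per the submitters' processing notes; version and algorithm: not given in the sources used here. From the values, every array had a 2% trimmed mean of 150, so the arrays were scaled to the same trimmed mean. Array medians still differed, from 21.0 in heterozygote 2 to 25.6 in heterozygote 3. Instrument records were read for scan day and fluidics module: each genotype had its own modules, so module and genotype cannot be told apart.

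Of 45101 probe sets, 64 controls were left out. Values became log2(signal + 1.87), 1.87 being the 10th percentile. The lowest 40% by mean log2 value (signal about 13.2) were left out and 27022 tested with limma 3.58.1 (lmFit, eBayes with intensity trend; R 4.3.3), two-sided, Benjamini-Hochberg at 0.05 over all of them, with genotype as the sole term. Log2 differences include the pseudocount and understate changes of dim genes. Gene names came from the platform annotation (34945 with 1 symbol, 932 with several and 9160 with none, neither of these named), with symbols checked against RefSeq of GRCm38.p6. The fit was also run on simulated data with changes larger than any member difference, so that run says nothing about differences of the size given here. Members, lists, motif and markers were chosen with earlier results of these data known, and lists were described by counts and medians without a test. Values of every array were given for the 2 members of smallest p in each role and for members with an unadjusted p under 0.05. They were also given for the brightest and dimmest member and the 2 genes of smallest p in each list. Values given for Ift81, Ift20, Ift88, Ift57, Ift122, Bbs7, Bbs1, Dync2li1, Cep290, Ahi1 and Tmem67 were chosen after they were seen. So were those of Wdr19, Ttc21b and further probe sets. Alternatives were a pseudocount of 1 or 7.03 (the 25th percentile), equal array medians, quantile normalization, no filter, a 60% filter, no intensity trend, array weights, replicate number or scan day as a block, the mean of a gene's probe sets, and each array left out in turn. Figures were drawn with matplotlib 3.10.9.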

Additional observations from a re-analysis of the deposited data

How the results depend on the processing

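In 16 alternatives 0 member probe sets passed the adjusted threshold, and neither did any of the 86 ciliary, Hedgehog and node genes outside the members on their brightest probe set. The number of all probe sets called, 22, was 0 without the intensity trend, 14 with scan day as a block, 10 with the replicate block and 8 to 20 with an array left out. Samples with the same replicate number did not deviate together (correlations of -0.08, -0.11 and -0.02), so the numbers were not taken to pair embryos; with the replicate block Ift74 had an adjusted p of 0.617 and Tcof1 0.182. The adjusted p of Tcof1 was 0.413 without the trend, 0.0906 with scan day as a block and 0.0604 for the mean of its probe sets. The member median was -0.10 to -0.032 with an array left out, lowest without heterozygote 1, and 19 to 25 of 35 members were negative over all alternatives. No alternative turned the sign of 17 members, and 18 turned in at least 1. These included Bbs4 (-0.0012 with quantile normalization, -0.0059 with equal medians, -0.022 with array weights), Ift122 (0.011 with quantile normalization), and Ift172, Ift57 and Ahi1 with equal medians (-0.014, -0.0034 and -0.011). On the mean of all probe sets Ift57 was -0.16 and Kif3b 0.051. With an array left out, the lowest and highest values were Bbs1 -0.33 to 0.038, Bbs4 -0.17 to 0.12, Bbs5 -0.037 to 0.062, Ift122 -0.097 to 0.094, Ift172 -0.11 to 0.12, Ift52 -0.10 to 0.10, Ift57 -0.058 to 0.049, Ift80 -0.036 to 0.096, Dync2li1 -0.26 to 0.031, Kif7 -0.15 to 0.12, Ahi1 -0.11 to 0.12, Cep290 -0.031 to 0.42, Mks1 -0.068 to 0.16, Ofd1 -0.012 to 0.17, Tctn1 -0.74 to 0.29, Tctn2 -0.12 to 0.046, Tctn3 -0.12 to 0.079. The depth of signal limits Tctn1, Tmem67 and the dim probe sets, which lie near the bacterial controls.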
